A study of Mus musculus with 27 samples.

Results

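The genes described here are 46 mouse genes that handle reactive oxygen species or make them: glutathione S-transferases, glutathione peroxidases, peroxiredoxins, the thioredoxin system, enzymes of glutathione synthesis and recycling, superoxide dismutases and catalase, the Nrf2 axis and the phagocyte NADPH oxidase. They were taken from a list of gene symbols and matched through Ensembl gene identifiers. All 46 were among the 38124 genes of the count table. Of these, 41 passed the filter on low counts that left 13599 genes for testing. Gsta3, Gsta4, Gpx7, Gpx8 and Sod3 did not pass.

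Messenger RNA was counted in alveolar macrophages collected by lavage from C57B/6 mice and separated by flow cytometry. The mice, aged 8 to 14 weeks, had, except for an untreated group, received lipopolysaccharide (LPS), a bacterial cell wall component, into the trachea; the labels give 20 nanograms in 50 microliters of buffered saline for the treatment. Recruited macrophages (CD11c- CD11b+) came from days 3, 6, 9 and 12 after LPS. Resident macrophages (CD11c+ CD11b-) came from days 3, 6, 9 and 12 after LPS and from the untreated mice, called day 0. Each of the 9 groups had 3 libraries, 27 in all, and the labels do not say whether these came from separate animals, so that p-values measure the spread between these libraries, which may be technical. All animals shared the strain, and the labels name no transgene or deletion. Recruited cells have no untreated group, so their time course starts at day 3.

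The phagocyte oxidase is built from a membrane pair, encoded by Cybb and Cyba, and cytosolic subunits that include the products of Ncf1 and Ncf4; once assembled it passes electrons from NADPH to oxygen and makes superoxide. Superoxide dismutases turn superoxide into hydrogen peroxide, which catalase, peroxiredoxins and glutathione peroxidases remove, the peroxiredoxins and peroxidases with electrons from thioredoxin and glutathione. The transcription factor Nrf2, encoded by Nfe2l2 and held back by Keap1, is known to drive many genes of glutathione and thioredoxin metabolism. Alveolar macrophages face inhaled oxygen and particles, and superoxide release is part of how macrophages respond to bacteria.

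Library totals ran from 11093216 to 18299674 counts (median 14859352), and 16152 to 17621 genes had a count in a library. Levels are given as CPM, counts scaled to library size with trimmed-mean factors. The listed genes took 0.837% to 1.34% of the counts in recruited libraries and 0.908% to 1.25% in resident libraries. The labelled populations were checked against 12 marker genes each: resident alveolar macrophage genes summed to 2820 to 11800 CPM in recruited libraries and 17700 to 35200 CPM in resident libraries, and genes of monocyte-derived macrophages to 6790 to 30000 CPM in recruited libraries and 536 to 1440 CPM in resident libraries. The genes of the sort markers, Itgax and Itgam, are on these lists, so that part of the check is not separate from the sort. Among 14 neutrophil genes, Mpo, Elane and Ly6g stayed at or under 0.314 CPM in every library, whereas the sum of all 14 was 528 to 1090 CPM in recruited libraries on day 3 and 232 to 274 CPM in resident libraries on day 3, most of it Csf3r, S100a8, S100a9 and Mmp8. Since whole sorted samples were sequenced, fewer cells of a type and less RNA per cell cannot be told apart.

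One untreated library stood apart for these genes. Resident day 0 replicate 1 was the highest of the 3 untreated libraries for 33 of the 41 listed genes that passed the filter (80.5%), against 40.1% of all genes tested. It was more than 1.5 times both other untreated libraries for 13 of the 41 (31.7%), against 7.92% of all genes. These 13 were Gstm1, Gstm5, Mgst2, Gpx3, Prdx1, Txn1, Txnrd1, Srxn1, Gclm, Gss, Cat, Nqo1 and Me1. Its total of 14838008 counts lay between those of the other untreated libraries. Its share of reads outside any gene was 11.2%, against 9.16% and 9.23%, and its sum of 12 epithelial marker genes, 120 CPM, was the lowest of the 3. Counts of calls and the values of named genes against day 0 are therefore given with and without it. A second set also stood apart. Library numbers 12 to 18 in the deposited headers, a range set after the numbers were seen, hold 1 of the 3 libraries of each of 4 groups (recruited day 9 and day 12, resident day 9 and day 12). In all 4 groups that library was the highest of its 3 for 16 of the 41 listed genes (39%), against 14.5% of all genes, and the lowest for 6 (14.6%), against 12.7% of all genes.

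**Figure D1:**
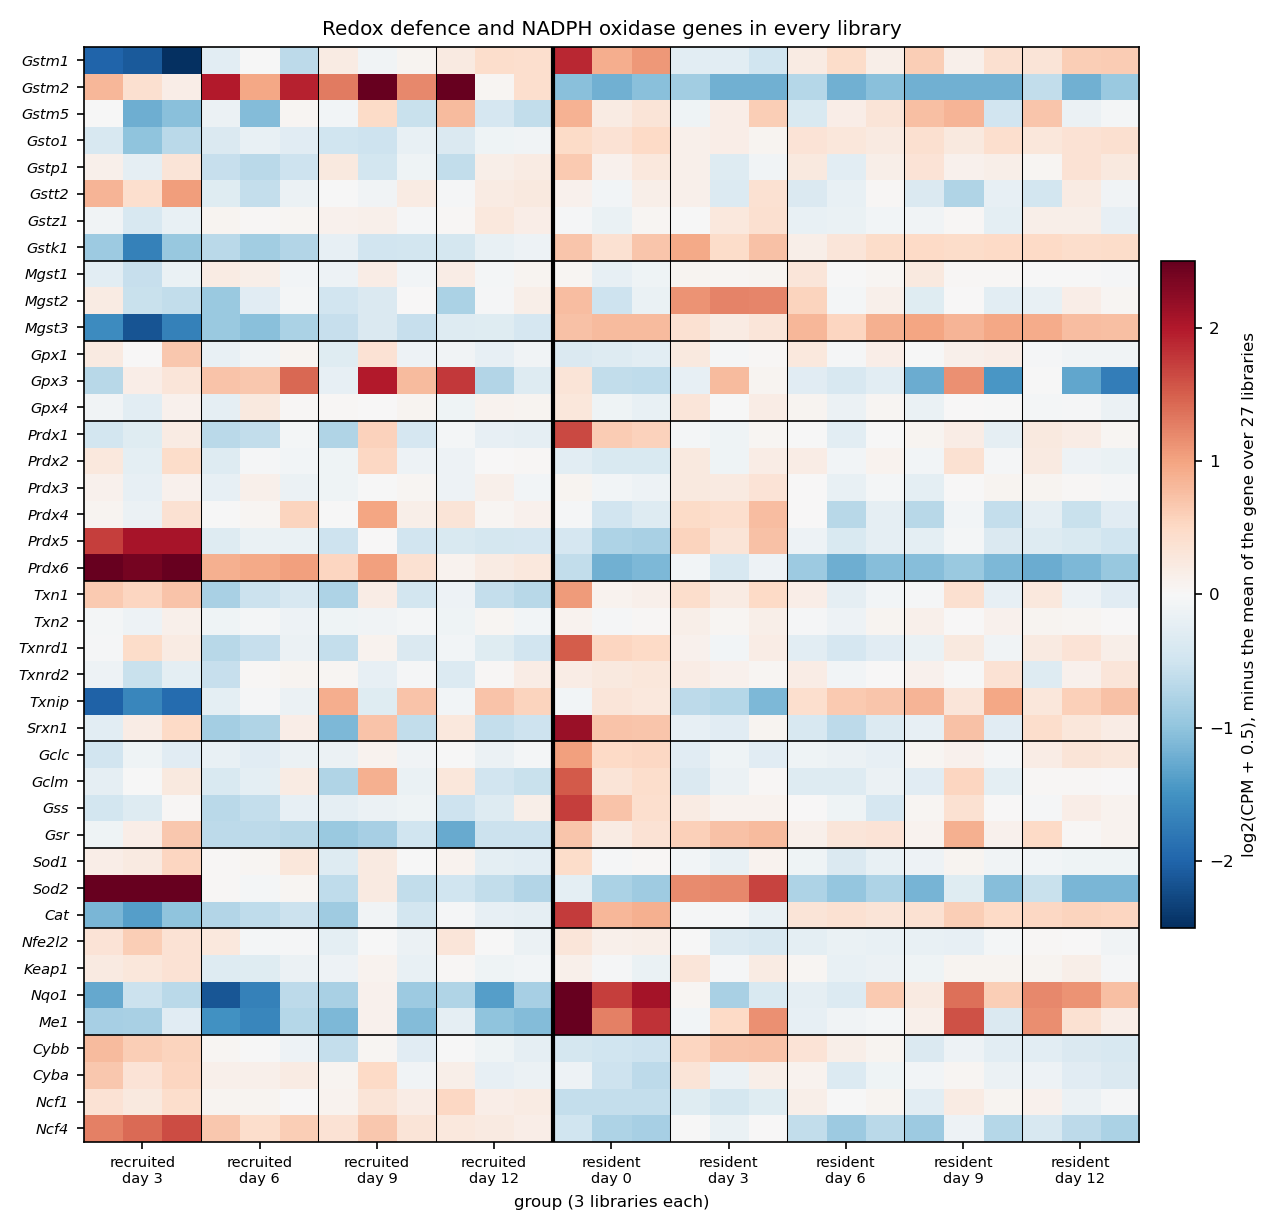
Level of each of the 41 listed genes that passed the count filter (rows, grouped by role) in each of the 27 libraries (columns, 3 per group, recruited groups left of resident groups), as log2(CPM + 0.5) minus the mean of the gene over all 27 libraries. Red is above and blue below that mean; Sod2, Prdx5 and Prdx6 are red in the 3 recruited day 3 libraries, and the first resident day 0 library is red for Srxn1, Gclm, Nqo1 and other genes.

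Recruited cells carried more mRNA for Prdx6, a peroxiredoxin that reduces lipid peroxides, for the oxidase subunit Ncf4 and for the mitochondrial superoxide dismutase Sod2, and less for Mgst3, a microsomal glutathione transferase and peroxidase, for catalase (Cat) and for glutathione reductase (Gsr). Cybb, the catalytic subunit of the oxidase, did not pass the test. Averaged over days 3, 6, 9 and 12, 26 of 41 genes differed between recruited and resident cells, 12 higher and 14 lower in recruited cells (63.4%), while 60.3% of all genes tested differed, 30.3% higher and 30% lower. The share of the listed genes was thus near that of the whole table. The listed genes had a median log2 difference of -0.11, and all genes one of 0.02. For 3 of the 41 genes (Gstm2, Prdx6 and Ncf4) recruited libraries were above resident libraries without overlap on each of the 4 days, as they were for 8.82% of all genes. For 4 genes (Gsto1, Gstk1, Mgst3 and Cat) they were below on each day, as for 10.7% of all genes. Gstm2 had at most 0.255 CPM in any resident library and passed the count filter through recruited libraries alone, so that filter favoured its separation. These and all following tests are edgeR quasi-likelihood tests with Benjamini-Hochberg adjustment over all 13599 genes, a gene is called when the adjusted p is under 0.05, and differences are log2 ratios ± SE.

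On single days too, the share of the listed genes that was called lay near that of the whole table. On day 3, 20 of 41 were called (48.8%), 10 higher and 10 lower in recruited cells, against 46.6% of all genes, 23.2% higher and 23.5% lower. On day 6 there were 13 (31.7%), 4 higher and 9 lower, against 35% of all genes, 16.2% higher and 18.8% lower. On day 9 there were 11 (26.8%), 4 higher and 7 lower, against 32% of all genes, 15.5% higher and 16.4% lower. On day 12 there were 12 (29.3%), 4 higher and 8 lower, against 27.3% of all genes, 12.6% higher and 14.7% lower. Prdx6, Ncf4, Mgst3, Gsto1, Gstk1 and Cat were called on all 4 days, and Gsr on days 6, 9 and 12. Libraries of the same day and replicate number deviated together in the data, and when each such pair was given its own term, here called the pair block, 24 of the listed genes were called on day 3, against 53% of all genes, 19 on day 6, against 42.3%, 16 on day 9, against 40%, and 18 on day 12, against 35.1%. On average over days 31 were called with the block, 12 higher and 19 lower, against 64.7% of all genes. The listed genes called without the block, on average and on each day, were all called with it.

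**Figure D2:**
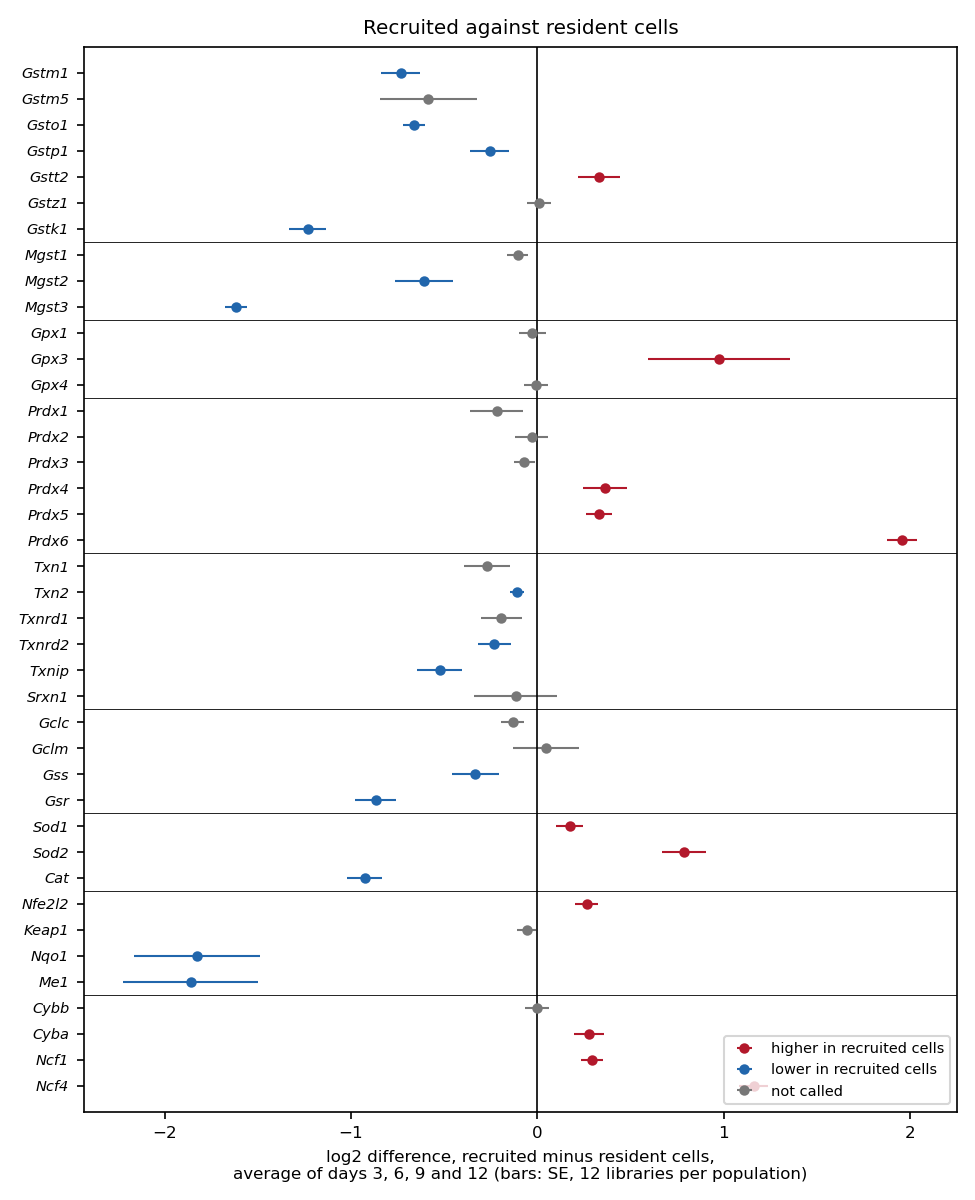
Log2 difference between recruited and resident cells for 40 of the 41 listed genes (points), averaged over days 3, 6, 9 and 12, with the standard error (bars, often within the point) and 12 libraries per population; Gstm2, near 0 in resident cells, is left out. Prdx6 at 1.96 and Ncf4 at 1.16 lie farthest right among the called genes, Me1, Nqo1 and Mgst3 farthest left, and Cybb lies at 0.

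In resident cells, day 3 after LPS differed from the untreated state by more Sod2, Prdx5 and Cybb mRNA and by less Nqo1, Gstm1 and Cat mRNA. Of the 41 genes, 23 were called on day 3 against day 0 (9 higher, 14 lower; 56.1%), while 23.8% of all genes were called, 13.3% higher and 10.5% lower. Without the untreated library that stood apart, 15 were called (9 higher, 6 lower), against 20.5% of all genes, and all 15 were among the 23. The 6 lower genes that stayed were Gstm1, Mgst3, Txnip, Gclc, Cat and Nqo1. On day 6, 11 genes were called (2 higher, 9 lower), against 6.42% of all genes, 3.77% higher and 2.65% lower. Without that library there were 7 (3 higher, 4 lower), 6 of them among the 11, against 3.24% of all genes. On day 9, 8 were called (1 higher, 7 lower), against 3.49% of all genes, 1.61% higher and 1.88% lower; without that library 2 were called, Ncf1 higher and Gclc lower, against 1.2% of all genes. On day 12, 3 were called (Ncf1 higher, Gss and Gstm1 lower), against 1.3% of all genes, 1.1% higher and 0.206% lower; without that library 1 was called, Ncf1, against 0.777% of all genes. Marker gene sums moved between these groups. On day 3 against day 0, resident libraries had sums of 232 to 274 CPM against 117 to 140 CPM for the 14 neutrophil genes, and of 1200 to 1440 CPM against 536 to 562 CPM for the 12 genes of monocyte-derived macrophages. Sums were 86.3 to 154 CPM on day 3 against 201 to 304 CPM on day 0 for 12 T and NK cell genes, 139 to 249 CPM against 326 to 504 CPM for 6 eosinophil and basophil genes, and 86.9 to 115 CPM against 120 to 207 CPM for 12 epithelial genes. Of the 6 eosinophil and basophil genes, 4 had no count on day 0 and 4 had none on day 3. Siglecf is both on that list and among the resident alveolar macrophage genes, so that sum need not come from other cells. The 12 resident alveolar macrophage genes summed to 28000 to 34600 CPM on day 3 against 17700 to 20700 CPM on day 0. None of the ranges overlapped between day 3 and day 0. The part of these markers in the changes against day 0 was not tested.

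**Figure D3:**
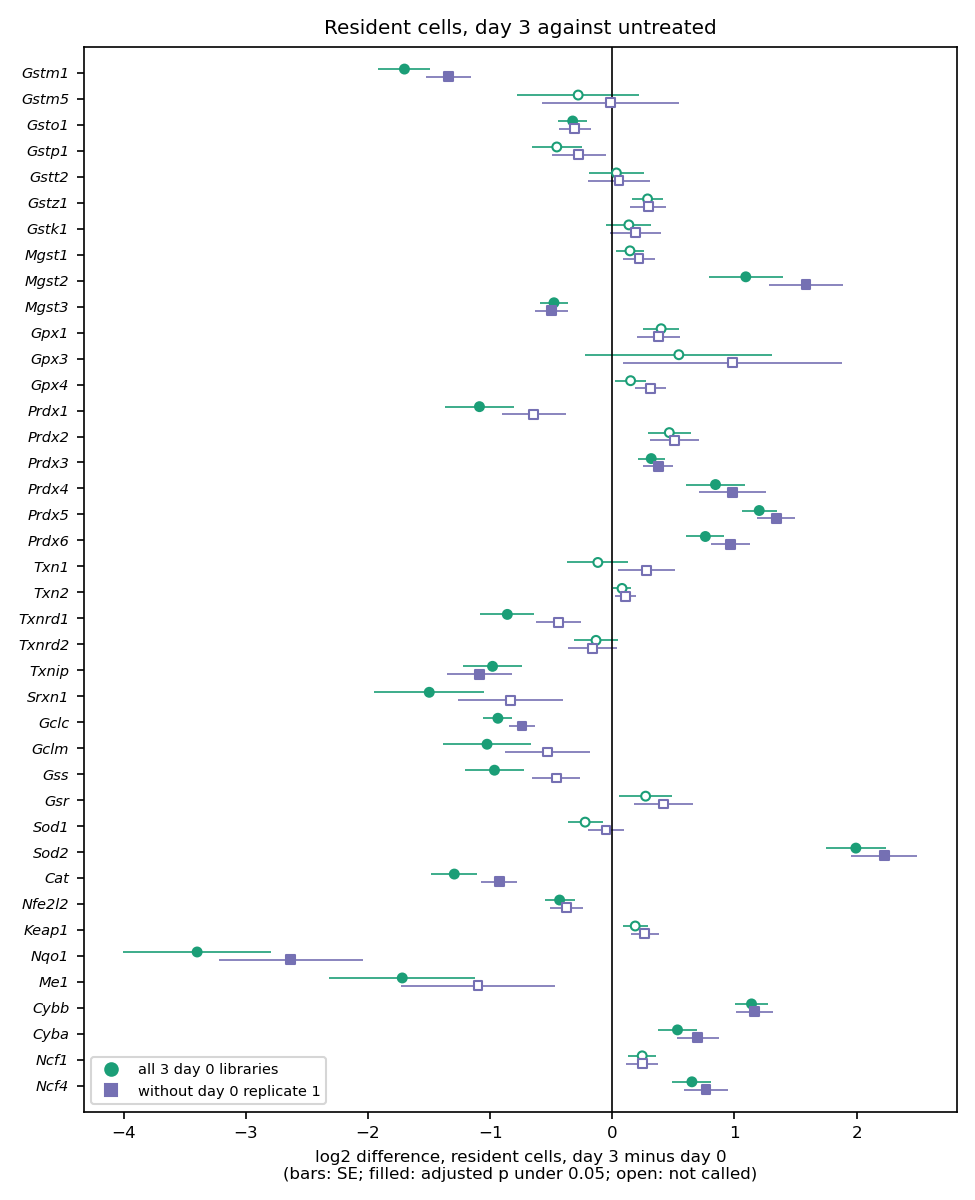
Log2 difference between day 3 and day 0 in resident cells for 40 of the 41 listed genes, from all 3 untreated libraries (circles) and without untreated replicate 1 (squares), with standard errors (bars). Filled symbols are called and open symbols are not; Sod2 and Cybb are filled in both, while Prdx1, Srxn1, Gclm and Me1 are filled with all 3 untreated libraries and open without replicate 1.

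In recruited cells, Sod2, Prdx5 and Prdx6 fell after day 3, while Gstm1, the thioredoxin inhibitor Txnip and Mgst3 rose. On day 6 against day 3, 19 of 41 genes were called (6 higher, 13 lower), against 31.9% of all genes, 15.1% higher and 16.8% lower. On day 9, 16 were called (6 higher, 10 lower), against 36.3% of all genes, 18.2% higher and 18% lower. By day 12, 21 were called (8 higher, 13 lower), against 39.3% of all genes, 19.8% higher and 19.5% lower. These 3 comparisons share the day 3 libraries, as the comparisons of resident cells share the day 0 libraries. Marker sums moved over the same days: in recruited libraries the resident alveolar macrophage genes came to 3040 to 3990 CPM on day 3, 2820 to 4890 CPM on day 6, 3510 to 9530 CPM on day 9 and 4420 to 11800 CPM on day 12. The neutrophil genes came to 528 to 1090 CPM on day 3, 367 to 447 CPM on day 6, 284 to 362 CPM on day 9 and 299 to 414 CPM on day 12. Genes of monocyte-derived macrophages came to 8290 to 11500 CPM on day 3, 16500 to 22800 on day 6, 11500 to 30000 on day 9 and 6790 to 26700 on day 12. For 7 endothelium and stroma genes the sums were 27.6 to 57.2 CPM on day 3, 7.27 to 9.16 on day 6, 4.35 to 6.28 on day 9 and 4.13 to 6.21 on day 12. The part of these markers in the changes of recruited cells was not tested.

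**Figure D4:**
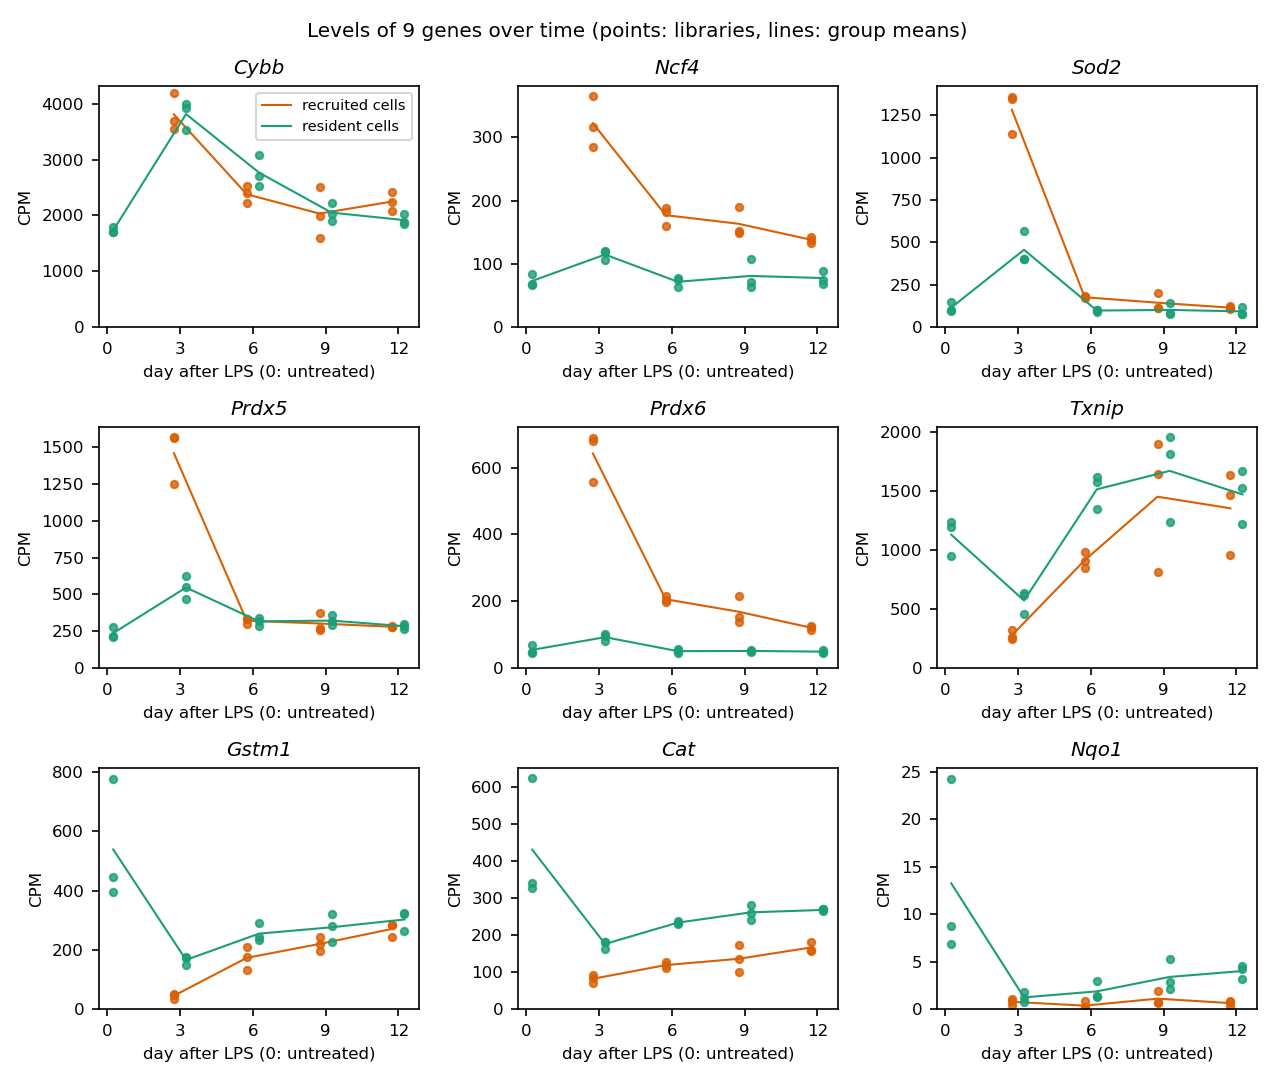
Levels in CPM of 9 listed genes against day after LPS in recruited cells (orange, from day 3) and resident cells (green, day 0 being untreated); points are libraries, 3 per group, drawn slightly apart, and lines join group means. Sod2, Prdx5 and Prdx6 are highest in recruited cells on day 3, Cybb is near 3810 CPM in both populations on day 3, and Gstm1, Cat and Nqo1 are highest in untreated resident cells.

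The subunits of the NADPH oxidase differed in level. Per kilobase of exon, on the scale of CPM per kilobase, recruited cells on day 3 averaged 989 for Cyba, 656 for Cybb, 238 for Ncf1 and 159 for Ncf4, and untreated resident cells averaged 515 for Cyba, 298 for Cybb, 124 for Ncf1 and 36.1 for Ncf4. The order of the 4 subunits was the same in both groups. Cybb (ENSMUSG00000015340, chrX:9435252-9487771; all gene positions are GRCm38, GENCODE M21) encodes the flavocytochrome chain that reduces oxygen. Cybb stood at 4190, 3690 and 3550 CPM on day 3, 2520, 2400 and 2220 on day 6, 1600, 2510 and 1990 on day 9, and 2420, 2250 and 2080 on day 12 in recruited cells. For Cybb, resident libraries stood at 1790, 1710 and 1700 CPM on day 0, 3530, 3930 and 3990 on day 3, 3080, 2700 and 2530 on day 6, 1900, 2230 and 2020 on day 9, and 2020, 1890 and 1840 on day 12. All day 3 libraries of both populations lay above all untreated libraries, and recruited libraries lay below resident libraries on day 6, above them on day 12 and overlapped with them on days 3 and 9. The average difference between recruited and resident cells was 0.00 ± 0.06, adjusted p = 0.996, and on day 3 0.00 ± 0.13, adjusted p = 0.992. Resident Cybb was higher on day 3 than on day 0 by 1.14 ± 0.13, adjusted p = 1.53e-06, and on day 6 by 0.68 ± 0.13, adjusted p = 0.00247. Without untreated replicate 1 these were 1.16 ± 0.15, adjusted p = 1.55e-05 on day 3 and 0.70 ± 0.15, adjusted p = 0.0106 on day 6. In recruited cells Cybb was lower on day 6 than on day 3, -0.68 ± 0.13, adjusted p = 0.000352, and on day 12, -0.76 ± 0.13, adjusted p = 6.89e-05.

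Cyba (ENSMUSG00000006519, chr8:122424776-122432930) encodes the smaller membrane partner that stabilises the Cybb product. Cyba had 1140, 908 and 1040 CPM on day 3, 784, 780 and 825 on day 6, 751, 1010 and 675 on day 9, and 786, 620 and 647 on day 12 in recruited cells. Resident cells had Cyba at 652, 498 and 455 CPM on day 0, 890, 643 and 789 on day 3, 761, 562 and 662 on day 6, 678, 735 and 648 on day 9, and 658, 589 and 554 on day 12. Recruited libraries were higher in all 12 pairs of equal day and number, although the groups overlapped on days 9 and 12. The average difference was 0.28 ± 0.08, adjusted p = 0.00487. The day 3 difference, 0.41 ± 0.16, adjusted p = 0.0411, lost its call when any 1 of 4 of the 6 libraries was left out (adjusted p up to 0.199). In resident cells Cyba was higher on day 3 than on day 0, 0.53 ± 0.16, adjusted p = 0.0194, and 0.70 ± 0.17, adjusted p = 0.00582 without untreated replicate 1. That rise lost its call without any 1 of 4 other libraries (adjusted p up to 0.108). On day 6 the population difference was 0.28, adjusted p = 0.0369 with the pair block and 0.27 ± 0.16, adjusted p = 0.214 without it.

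Ncf1 (ENSMUSG00000015950, chr5:134220053-134229625) encodes p47phox, the cytosolic organiser that carries the complex to the membrane. Ncf1 was at 881, 806 and 930 CPM on day 3, 717, 717 and 694 on day 6, 724, 855 and 778 on day 9, and 977, 767 and 786 on day 12 in recruited cells. For Ncf1, resident libraries were at 455, 455 and 453 CPM on day 0, 554, 508 and 554 on day 3, 756, 678 and 721 on day 6, 574, 793 and 714 on day 9, and 741, 622 and 672 on day 12. The 3 untreated libraries were the lowest of all 27. The resident difference from day 0 was 0.24 ± 0.12, adjusted p = 0.127 on day 3, 0.66 ± 0.12, adjusted p = 0.00109 on day 6, 0.61 ± 0.12, adjusted p = 0.00413 on day 9 and 0.58 ± 0.12, adjusted p = 0.00918 on day 12, the last 3 being called. Without untreated replicate 1 the values were 0.25 ± 0.13, adjusted p = 0.196 on day 3, 0.66 ± 0.13, adjusted p = 0.00691 on day 6, 0.61 ± 0.13, adjusted p = 0.0217 on day 9 and 0.58 ± 0.13, adjusted p = 0.0345 on day 12. The day 12 call was lost without resident day 12 replicate 1, at 0.48 (adjusted p = 0.12). Recruited cells had more Ncf1 than resident cells on day 3, 0.70 ± 0.12, adjusted p = 3.1e-05, and on day 12, 0.31 ± 0.12, adjusted p = 0.0454, the second of which lost its call without any 1 of 3 libraries (adjusted p up to 0.215). About 11.1% of the exon bases of Ncf1 lie opposite exons of Gtf2ird2, and no strand option is given in the sources used here.

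Ncf4 (ENSMUSG00000071715, chr15:78244801-78262580) encodes p40phox, which binds a phosphoinositide of phagosome membranes. Ncf4 reached 284, 317 and 366 CPM on day 3, 189, 160 and 182 on day 6, 152, 190 and 148 on day 9, and 143, 138 and 133 on day 12 in recruited cells. Resident cells had Ncf4 at 84.2, 68.7 and 66.1 CPM on day 0, 118, 106 and 120 on day 3, 77.6, 63 and 74.3 on day 6, 62.7, 108 and 71.9 on day 9, and 89.3, 75.1 and 68.1 on day 12. Recruited libraries were above resident libraries on every day without overlap. The difference was 1.49 ± 0.16, adjusted p = 1.09e-07 on day 3, 1.30 ± 0.16, adjusted p = 1.19e-06 on day 6, 1.01 ± 0.16, adjusted p = 3.13e-05 on day 9 and 0.83 ± 0.16, adjusted p = 0.000414 on day 12, each call being kept without any 1 library. In resident cells Ncf4 was higher on day 3 than on day 0, 0.65 ± 0.16, adjusted p = 0.00492, and 0.77 ± 0.18, adjusted p = 0.00415 without untreated replicate 1. In recruited cells it was lower on day 12 than on day 3, -1.22 ± 0.16, adjusted p = 2.24e-06. The sum of the 14 neutrophil genes moved alongside, at 528 to 1090 CPM in recruited libraries on day 3 and 299 to 414 CPM in recruited libraries on day 12. In resident libraries on days other than day 3 this sum was 117 to 173 CPM. Most of the day 3 sum was Csf3r, S100a8, S100a9 and Mmp8, while Mpo and Elane had no count in 25 of 27 libraries each. The part of the neutrophil genes in the oxidase values was not tested.

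Other oxidase genes and regulators, from a list of 15 genes in the table, were mixed. Of the 9 tested, 6 were called between populations on average (66.7%), 3 higher and 3 lower in recruited cells, against 60.3% of all genes, with a median log2 difference of -0.01. Prkcd, a kinase that phosphorylates p47phox, averaged 755 CPM in recruited cells and 535 CPM in resident cells after LPS (0.52 ± 0.08, adjusted p = 2.7e-06). Vav1, an exchange factor for Rac, averaged 328 CPM in recruited cells and 252 CPM in resident cells (0.31 ± 0.06, adjusted p = 6.63e-05), and Cybc1, a chaperone of the membrane pair, 139 CPM and 120 CPM in the same order (0.21 ± 0.07, adjusted p = 0.0124). Hvcn1, the proton channel that balances the charge moved by the oxidase, averaged 467 CPM in recruited cells and 715 CPM in resident cells (-0.62 ± 0.06, adjusted p = 1.78e-09). Rac1, a small GTPase that activates the oxidase, was also lower in recruited cells (-0.44 ± 0.05, adjusted p = 2.08e-08). Nox3, Nox4, Noxa1 and Duox2 had no count in either population after LPS.

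Among the dismutases and catalase, Sod2 (ENSMUSG00000006818, chr17:13006846-13040063), the mitochondrial manganese enzyme and a known target of NF-kappaB, had the steepest course. Sod2 had 1140, 1350 and 1360 CPM on day 3, 178, 169 and 182 on day 6, 113, 204 and 115 on day 9, and 124, 114 and 106 on day 12 in recruited cells. For Sod2, resident libraries had 149, 101 and 94.8 CPM on day 0, 400, 405 and 565 on day 3, 102, 89 and 102 on day 6, 78.4, 142 and 83.5 on day 9, and 119, 79.7 and 79.5 on day 12. Day 3 libraries were far above the other days in both populations, and recruited day 3 libraries were above resident day 3 libraries without overlap. Recruited cells were 2.81-fold higher than resident cells on day 3, 1.49 ± 0.24, adjusted p = 2.15e-05, and higher on day 6, 0.85 ± 0.24, adjusted p = 0.00681. With the pair block the difference was also called on day 9 (0.50, adjusted p = 0.00094; 0.106 without the block) and on day 12 (0.32, adjusted p = 0.0213; 0.388 without it). Resident Sod2 was 3.98-fold higher on day 3 than on day 0, 1.99 ± 0.24, adjusted p = 3.71e-06, and 2.23 ± 0.27, adjusted p = 6.28e-06 without untreated replicate 1; it did not pass the test on later days with or without that library. In recruited cells it fell on day 6 against day 3 by 2.87 on the log2 scale (adjusted p = 1.91e-08) and by day 12 by 3.49 (adjusted p = 7.27e-10). In Sod2, 21% of 50-base windows of its transcripts also occur in another gene's transcripts, so part of its reads may have been uncertain.

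Cat (ENSMUSG00000027187, chr2:103453849-103485160) encodes catalase, the peroxisomal enzyme that breaks down hydrogen peroxide. Cat had 83.1, 70.9 and 91.3 CPM on day 3, 111, 118 and 127 on day 6, 99.1, 173 and 135 on day 9, and 182, 159 and 158 on day 12 in recruited cells. Resident cells had Cat at 623, 328 and 340 CPM on day 0, 182, 182 and 163 on day 3, 231, 239 and 230 on day 6, 241, 282 and 260 on day 9, and 264, 270 and 269 on day 12. Recruited libraries were below resident libraries on all 4 days without overlap, and untreated resident libraries were above all others. The difference between populations was -1.10 ± 0.19, adjusted p = 4.57e-05 on day 3, -0.97 ± 0.19, adjusted p = 0.000259 on day 6, -0.94 ± 0.19, adjusted p = 0.000405 on day 9 and -0.69 ± 0.19, adjusted p = 0.00781 on day 12. Resident Cat was lower on day 3 than on day 0, -1.29 ± 0.19, adjusted p = 3.5e-05, and without untreated replicate 1 -0.93 ± 0.15, adjusted p = 0.000173. On day 6 it was -0.88 ± 0.19, adjusted p = 0.0055 with that library and -0.52 ± 0.15, adjusted p = 0.0613 without it, and on day 9 -0.72 ± 0.19, adjusted p = 0.0317 with it and -0.35 ± 0.15, adjusted p = 0.307 without it. In recruited cells Cat was higher on day 12 than on day 3, 1.02 ± 0.19, adjusted p = 0.000147; the day 6 rise, 0.54 ± 0.19, adjusted p = 0.0314, lost its call without any 1 of 4 libraries. Sod1, the cytosolic copper and zinc enzyme, ranged from 61.9 to 112 CPM in recruited libraries and from 59.9 to 106 CPM in resident libraries, and was slightly higher in recruited cells on average (0.17 ± 0.07, adjusted p = 0.0399). Sod3, the extracellular enzyme, had at most 1.02 CPM in any library.

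The 6 peroxiredoxins parted into Prdx4, Prdx5 and Prdx6, which were higher in recruited cells on average, and Prdx1, Prdx2 and Prdx3, which were not called. Prdx6 (ENSMUSG00000026701, chr1:161240112-161251219) had 689, 558 and 679 CPM on day 3, 197, 204 and 217 on day 6, 153, 215 and 138 on day 9, and 113, 122 and 127 on day 12 in recruited cells. For Prdx6, resident libraries had 69, 45.9 and 48.6 CPM on day 0, 101, 79.6 and 96.8 on day 3, 56.2, 45.3 and 50.4 on day 6, 50.1, 55.1 and 48.6 on day 9, and 44.6, 48.6 and 54.4 on day 12. Every recruited library was above every resident library. The recruited level was 6.94-fold that of resident cells on day 3, 2.80 ± 0.16, adjusted p = 1.87e-11, and 2.46-fold on day 12, 1.30 ± 0.16, adjusted p = 2.08e-06, with 2.02 ± 0.16 on day 6 and 1.72 ± 0.16 on day 9. Resident Prdx6 was higher on day 3 than on day 0, 0.76 ± 0.16, adjusted p = 0.00107, and 0.97 ± 0.16, adjusted p = 0.000199 without untreated replicate 1. In recruited cells Prdx6 fell by 2.41 on the log2 scale on day 12 against day 3 (adjusted p = 1.33e-10). None of these calls was lost without any 1 library.

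Prdx5 (ENSMUSG00000024953, chr19:6906697-6910106), a peroxiredoxin of mitochondria, peroxisomes and cytosol, was at 1250, 1560 and 1570 CPM on day 3, 299, 333 and 334 on day 6, 262, 377 and 270 on day 9, and 287, 276 and 279 on day 12 in recruited cells. Resident cells had Prdx5 at 281, 220 and 212 CPM on day 0, 548, 470 and 624 on day 3, 343, 287 and 322 on day 6, 317, 360 and 291 on day 9, and 301, 286 and 266 on day 12. The 3 recruited day 3 libraries stood far above all others, and from day 6 on the populations overlapped. The difference was 1.41 ± 0.14, adjusted p = 4.98e-08 on day 3 and 0.02 ± 0.14, adjusted p = 0.932 on day 6. Resident Prdx5 was higher on day 3 than on day 0, 1.20 ± 0.14, adjusted p = 2.7e-06, and 1.34 ± 0.16, adjusted p = 3.34e-06 without untreated replicate 1. The day 6 value was 0.42 ± 0.14, adjusted p = 0.0859 with that library and 0.56 ± 0.15, adjusted p = 0.0461 without it. In recruited cells it fell by 2.38 on day 12 against day 3 (adjusted p = 6.28e-11). About 19.1% of the exon bases of Prdx5 lie opposite exons of Trmt112.

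Prdx4 (ENSMUSG00000025289, chrX:155323918-155340754), the peroxiredoxin of the endoplasmic reticulum, had 30.1, 25.7 and 37.1 CPM on day 3, 28.2, 29.4 and 42.4 on day 6, 28.5, 57.2 and 31.7 on day 9, and 35.6, 29.5 and 30.6 on day 12 in recruited cells. For Prdx4, resident libraries had 27.9, 20.2 and 22.7 CPM on day 0, 40, 38.2 and 48.8 on day 3, 28.7, 17.5 and 24.5 on day 6, 17.5, 27.3 and 18.8 on day 9, and 24.3, 19.1 and 23.2 on day 12. Recruited libraries were below resident libraries on day 3 and above them on days 9 and 12, without overlap. The difference was -0.45 ± 0.24, adjusted p = 0.128 on day 3 and 0.88 ± 0.24, adjusted p = 0.00667 on day 9; without recruited day 9 replicate 2 the day 9 value was 0.50 (adjusted p = 0.0891). With the pair block, the day 3 difference was -0.46, adjusted p = 0.00965, the day 6 difference 0.50, adjusted p = 0.00787 and the day 12 difference 0.52, adjusted p = 0.00739. Resident Prdx4 was higher on day 3 than on day 0, 0.84 ± 0.24, adjusted p = 0.0133, and 0.98 ± 0.27, adjusted p = 0.0143 without untreated replicate 1.

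Prdx1 (ENSMUSG00000028691, chr4:116685544-116700822), an abundant cytosolic peroxiredoxin, had 426, 476 and 675 CPM on day 3, 369, 385 and 571 on day 6, 350, 872 and 438 on day 9, and 572, 513 and 500 on day 12 in recruited cells. Resident cells had Prdx1 at 1860, 908 and 883 CPM on day 0, 571, 544 and 605 on day 3, 587, 488 and 582 on day 6, 613, 668 and 505 on day 9, and 701, 671 and 606 on day 12. The untreated libraries were the highest, replicate 1 by far. Resident Prdx1 was lower than on day 0 on day 3, -1.09 ± 0.28, adjusted p = 0.00816, on day 6, -1.14 ± 0.29, adjusted p = 0.0175, and on day 9, -1.03 ± 0.28, adjusted p = 0.0464. Without untreated replicate 1 these were -0.64, adjusted p = 0.0883 on day 3, -0.70, adjusted p = 0.173 on day 6 and -0.59, adjusted p = 0.346 on day 9, none of them called. Between populations the average was -0.22 ± 0.14, adjusted p = 0.188, and -0.26, adjusted p = 0.0259 with the block; without recruited day 9 replicate 2, which had 872 CPM, it was -0.34 (adjusted p = 0.0177). Prdx2 ranged from 86.2 to 155 CPM in recruited libraries and from 82.3 to 141 CPM in resident libraries, and the mitochondrial Prdx3 from 40.1 to 51.2 CPM and from 39.3 to 59.3 CPM in the same order. Without the block Prdx3 was called once, higher in resident cells on day 3 than on day 0 (0.32 ± 0.11, adjusted p = 0.0379; 0.38 ± 0.12, adjusted p = 0.0349 without untreated replicate 1). With the pair block it was also called on day 3 between populations (-0.27, adjusted p = 0.0444; 0.0548 without the block).

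In the thioredoxin system, Txnip (ENSMUSG00000038393, chr3:96557957-96561883), which binds and inhibits thioredoxin and limits glucose uptake, was lowest on day 3 in both populations. Txnip had 248, 324 and 263 CPM on day 3, 847, 988 and 910 on day 6, 1900, 812 and 1650 on day 9, and 958, 1640 and 1470 on day 12 in recruited cells. For Txnip, resident libraries had 955, 1240 and 1200 CPM on day 0, 640, 617 and 463 on day 3, 1350, 1580 and 1620 on day 6, 1820, 1240 and 1960 on day 9, and 1220, 1530 and 1670 on day 12. All 6 day 3 libraries were below the others, and recruited libraries were below resident libraries on days 3 and 6. The population difference was -1.04 ± 0.24, adjusted p = 0.00118 on day 3. By day 6 it was -0.73 ± 0.24, adjusted p = 0.0214, a call lost without any 1 of 4 of 6 libraries (adjusted p up to 0.0785). In recruited cells Txnip was 5.22-fold higher on day 9 than on day 3, 2.38 ± 0.25, adjusted p = 1.62e-07, and 4.88-fold higher on day 12, 2.29 ± 0.25, adjusted p = 1.98e-07. Resident Txnip fell on day 3 against day 0, -0.98 ± 0.24, adjusted p = 0.00534, and -1.09 ± 0.27, adjusted p = 0.00599 without untreated replicate 1. About 19.4% of its exon bases lie opposite those of the antisense gene Gm15441.

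Srxn1 (ENSMUSG00000032802, chr2:152105516-152111376) encodes sulfiredoxin, which restores overoxidised peroxiredoxins. Srxn1 had 53.9, 74.4 and 92.1 CPM on day 3, 35.8, 38.3 and 73.2 on day 6, 29.8, 107 and 42.4 on day 9, and 78.7, 43.2 and 45.3 on day 12 in recruited cells. Resident cells had Srxn1 at 292, 107 and 105 CPM on day 0, 56.5, 53.6 and 68.3 on day 3, 49, 41.3 and 51.3 on day 6, 56.1, 109 and 53.8 on day 9, and 88.5, 79 and 74.5 on day 12. Untreated replicate 1 was above all other libraries, and the population groups overlapped on every day. The difference between day 3 and day 0 was -1.50 ± 0.45, adjusted p = 0.0208, and -0.83 ± 0.43, adjusted p = 0.182 without that library. For day 6 it was -1.83 ± 0.46, adjusted p = 0.0186, and -1.17 ± 0.43, adjusted p = 0.165 without it. The calls of days 3 and 6 were also lost without any 1 of the 3 libraries of that day (adjusted p from 0.0528 to 0.0841). Between populations the average was -0.12 ± 0.22, adjusted p = 0.677, and on day 12 -0.54 ± 0.45, adjusted p = 0.417, or -0.58, adjusted p = 0.0496 with the block.

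Txnrd1 (ENSMUSG00000020250, chr10:82833951-82897712), the cytosolic reductase that keeps thioredoxin reduced, had 200, 278 and 234 CPM on day 3, 126, 137 and 184 on day 6, 135, 215 and 158 on day 9, and 193, 164 and 145 on day 12 in recruited cells. For Txnrd1, resident libraries had 585, 296 and 286 CPM on day 0, 219, 193 and 231 on day 3, 170, 152 and 168 on day 6, 181, 241 and 191 on day 9, and 238, 257 and 226 on day 12. Untreated libraries were above all other libraries. Resident Txnrd1 was lower on day 6 than on day 0, -1.25 ± 0.22, adjusted p = 0.00131, and -0.83 ± 0.18, adjusted p = 0.0129 without untreated replicate 1. On day 3 it was -0.86 ± 0.22, adjusted p = 0.00695, and -0.44 ± 0.18, adjusted p = 0.0954 without that library. Between populations the average was -0.21, adjusted p = 0.00936 with the block and -0.20 ± 0.11, adjusted p = 0.132 without it, and the day 12 difference -0.53, adjusted p = 0.00428 with the block and -0.52 ± 0.22, adjusted p = 0.085 without it. Thioredoxin itself, Txn1, ranged from 180 to 521 CPM in recruited libraries and from 261 to 666 CPM in resident libraries; its 3 recruited day 3 libraries, at 500, 459 and 521 CPM, were above the other recruited libraries. Its average population difference was -0.27 ± 0.12, adjusted p = 0.0662, and -0.28, adjusted p = 0.00105 with the block. The mitochondrial pair Txn2 (-0.11, adjusted p = 0.0148) and Txnrd2 (-0.23, adjusted p = 0.0289) was slightly lower in recruited cells on average. Txn2 ranged from 86.8 to 103 CPM in recruited libraries and from 86.5 to 105 CPM in resident libraries, and Txnrd2 from 11.1 to 19.3 CPM and from 13.3 to 21.8 CPM in the same order.

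Glutathione is made by glutamate-cysteine ligase (Gclc, catalytic, and Gclm, modifier) and glutathione synthetase (Gss), and is returned to its reduced form by glutathione reductase (Gsr). Gsr (ENSMUSG00000031584, chr8:33652523-33698163) had 240, 290 and 411 CPM on day 3, 165, 163 and 159 on day 6, 135, 146 and 183 on day 9, and 108, 179 and 178 on day 12 in recruited cells. Resident cells had Gsr at 418, 299 and 332 CPM on day 0, 389, 429 and 450 on day 3, 284, 320 and 326 on day 6, 273, 479 and 279 on day 9, and 364, 265 and 276 on day 12. Recruited libraries were below resident libraries on days 6, 9 and 12 without overlap. The difference was -0.43 ± 0.22, adjusted p = 0.115 on day 3, -0.93 ± 0.22, adjusted p = 0.00192 on day 6, -1.15 ± 0.22, adjusted p = 0.00029 on day 9 and -0.96 ± 0.22, adjusted p = 0.00222 on day 12. Recruited Gsr fell on day 6 against day 3 by 0.95 (adjusted p = 0.00207), while resident Gsr was called on no day against day 0, with or without untreated replicate 1.

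Gclm (ENSMUSG00000028124, chr3:122245557-122270732) had 46.5, 53.6 and 64.5 CPM on day 3, 41.5, 45.8 and 62.5 on day 6, 31.7, 101 and 48.4 on day 9, and 66.1, 38.7 and 36.7 on day 12 in recruited cells. For Gclm, resident libraries had 157, 67.4 and 73.3 CPM on day 0, 42.1, 49.1 and 55 on day 3, 43.3, 43.4 and 49.1 on day 6, 44.2, 79.1 and 45.5 on day 9, and 55.5, 55.5 and 54.5 on day 12. Untreated replicate 1 stood above all other libraries, and the populations overlapped on every day. On day 3 against day 0 the resident difference was -1.02 ± 0.36, adjusted p = 0.0426, and -0.53 ± 0.35, adjusted p = 0.299 without that library; the call was also lost without any 1 of the resident day 3 libraries (adjusted p from 0.0846 to 0.128). Between populations the average was 0.04 ± 0.18, adjusted p = 0.846. Gclc ranged from 31.3 to 46.8 CPM in recruited libraries and from 36 to 90.4 CPM in resident libraries. Resident Gclc was lower than on day 0 on day 3 (-0.94 ± 0.12, adjusted p = 6.14e-06), day 6 (-0.87 ± 0.12, adjusted p = 0.000109) and day 9 (-0.68 ± 0.12, adjusted p = 0.00251), and without untreated replicate 1 the values were -0.74, adjusted p = 3.41e-05, -0.67, adjusted p = 0.000654 and -0.48, adjusted p = 0.0204 in the same order of days, all called. Its average population difference was -0.14, adjusted p = 0.0122 with the block and -0.13 ± 0.06, adjusted p = 0.0579 without it. Gss (ENSMUSG00000027610, chr2:155563181-155592810) had 8.65, 9.66 and 12.4 CPM on day 3, 7.47, 7.89 and 10.5 on day 6, 10.3, 10.9 and 11.2 on day 9, and 8.35, 9.56 and 13.4 on day 12 in recruited cells. Resident cells had Gss at 41.3, 20.3 and 16.4 CPM on day 0, 14.1, 12.9 and 12.9 on day 3, 12.3, 11.3 and 8.9 on day 6, 12.5, 15.9 and 12.3 on day 9, and 11.8, 13.7 and 13 on day 12. Resident Gss was lower on day 6 than on day 0, -1.26 ± 0.25, adjusted p = 0.00286, and -0.76 ± 0.20, adjusted p = 0.035 without untreated replicate 1. On day 3 it was -0.96 ± 0.24, adjusted p = 0.00617 and -0.46 ± 0.20, adjusted p = 0.102 without that library, on day 9 -0.94 ± 0.24, adjusted p = 0.0312 and -0.44, adjusted p = 0.343, and on day 12 -1.02 ± 0.24, adjusted p = 0.0343 and -0.51, adjusted p = 0.372. The day 12 call was lost without any 1 of 4 libraries.

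Of the glutathione peroxidases, Gpx1, the abundant cytosolic enzyme, ranged from 534 to 1050 CPM in recruited libraries and from 512 to 790 CPM in resident libraries, and Gpx4, which reduces lipid peroxides in membranes, from 54.2 to 77.6 CPM and from 57.1 to 79.9 CPM in the same order. Neither was called between populations on any day. In Gpx4, 34.7% of 50-base windows also occur in the pseudogene Gpx4-ps2. Gpx3 (ENSMUSG00000018339, chr11:54902453-54910377), the secreted peroxidase, had 3.38, 6.52 and 7.28 CPM on day 3, 9.75, 9.56 and 16.4 on day 6, 4.93, 24.3 and 10.3 on day 9, and 20.8, 3.28 and 4.52 on day 12 in recruited cells. For Gpx3, resident libraries had 7.33, 3.6 and 3.52 CPM on day 0, 4.92, 10.3 and 6.04 on day 3, 4.66, 4.24 and 4.71 on day 6, 2.14, 13.3 and 1.8 on day 9, and 5.73, 2.06 and 1.4 on day 12. The highest library of each group on days 9 and 12 was 1 of the 4 numbered 12 to 18, recruited day 9 replicate 2 (24.3 CPM), recruited day 12 replicate 1 (20.8 CPM), resident day 9 replicate 2 (13.3 CPM) and resident day 12 replicate 1 (5.73 CPM). The average population difference was 0.98 ± 0.38, adjusted p = 0.0333, higher in recruited cells in 10 of 12 pairs, and lost its call without any 1 of 12 libraries; without recruited day 12 replicate 1 it was 0.67 (adjusted p = 0.11). With the pair block it was called on day 6 (1.36, adjusted p = 0.00185), day 9 (1.44, adjusted p = 0.00152) and day 12 (1.49, adjusted p = 0.00247), none of which was called without the block (adjusted p from 0.142 to 0.244). Gpx7 and Gpx8 had at most 0.269 CPM in any library.

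Glutathione S-transferases couple glutathione to reactive compounds. Gstm1 (ENSMUSG00000058135, chr3:108012255-108017973), a cytosolic mu-class enzyme, had 52, 48.4 and 34.4 CPM on day 3, 176, 210 and 133 on day 6, 243, 197 and 220 on day 9, and 245, 285 and 283 on day 12 in recruited cells. Resident cells had Gstm1 at 777, 395 and 445 CPM on day 0, 175, 174 and 149 on day 3, 242, 290 and 232 on day 6, 322, 228 and 279 on day 9, and 263, 320 and 325 on day 12. Recruited day 3 libraries were the lowest of all, untreated resident libraries the highest, and the populations overlapped on days 9 and 12. The population difference was -1.88 ± 0.22, adjusted p = 2.32e-07 on day 3. On day 6 it was -0.56 ± 0.21, adjusted p = 0.04, a call lost without any 1 of 5 libraries (adjusted p up to 0.182), and on day 9 -0.32, adjusted p = 0.0112 with the block and -0.33 ± 0.21, adjusted p = 0.242 without it. In recruited cells Gstm1 was 6.03-fold higher on day 12 than on day 3, 2.59 ± 0.22, adjusted p = 4.51e-09. In resident cells it was lower on day 3 than on day 0, -1.70 ± 0.21, adjusted p = 4.53e-06, and -1.34 ± 0.18, adjusted p = 2.47e-05 without untreated replicate 1. The day 6 value was -1.08 ± 0.21, adjusted p = 0.00256 and -0.72 ± 0.18, adjusted p = 0.0306 without that library, on day 9 -0.96 ± 0.21, adjusted p = 0.0106 and -0.60, adjusted p = 0.112, and on day 12 -0.83 ± 0.21, adjusted p = 0.0454 and -0.47, adjusted p = 0.383. About 18.9% of its 50-base windows also occur in other genes, mostly the pseudogene Gstm2-ps1.

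Gsto1 (ENSMUSG00000025068, chr19:47854970-47864790), the omega-class enzyme with thiol transferase activity, had 110, 72.3 and 91.5 CPM on day 3, 113, 128 and 120 on day 6, 104, 102 and 129 on day 9, and 114, 135 and 138 on day 12 in recruited cells. For Gsto1, resident libraries had 204, 187 and 207 CPM on day 0, 159, 165 and 153 on day 3, 185, 178 and 172 on day 6, 192, 174 and 197 on day 9, and 178, 189 and 194 on day 12. Recruited libraries were below resident libraries on each day without overlap, with differences of -0.80 ± 0.12, adjusted p = 7.48e-06 on day 3 and -0.53 ± 0.12, adjusted p = 0.00151 on day 12. Resident Gsto1 on day 3 against day 0 was -0.32 ± 0.12, adjusted p = 0.0486, a call lost without any 1 of the 6 libraries (-0.31 ± 0.13, adjusted p = 0.107 without untreated replicate 1). Gstk1, the mitochondrial and peroxisomal kappa-class enzyme, was lower in recruited cells at 1.41 to 5.13 CPM, against 6.26 to 11.4 CPM in resident cells after LPS (-1.23 ± 0.10, adjusted p = 1.82e-10). Gstm2 was at 0.698 to 11.4 CPM in the 12 recruited libraries and at 0 to 0.255 CPM in the 15 resident libraries, too few counts for a fold; its 2 highest values, 11 and 11.4 CPM, were in libraries numbered 12 to 18. Gstp1 (-0.26, adjusted p = 0.038) was slightly lower and Gstt2 (0.33, adjusted p = 0.0145) slightly higher in recruited cells on average. Gstp1 ranged from 17.2 to 34.5 CPM in recruited libraries and from 22.1 to 44.1 CPM in resident libraries, and Gstt2 from 3.9 to 13.3 CPM and from 3.45 to 8.17 CPM in the same order. In Gstp1, 33.7% of 50-base windows also occur in Gstp2. Gstz1, at 9.82 to 15.8 CPM in recruited libraries and 11 to 17.5 CPM in resident libraries, and Gstm5, at 0.707 to 4.4 CPM in recruited libraries and 1.51 to 4.63 CPM in resident libraries, were not called between populations on average. With the pair block Gstm5 was called on average (-0.62, adjusted p = 0.0161; 0.0559 without the block) and on day 3 (-1.18, adjusted p = 0.0328; 0.0906 without it). Gsta3 had at most 2.76 CPM, in untreated replicate 1, and Gsta4 at most 0.269 CPM.

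The microsomal transferases were lower in recruited cells where they differed. Mgst3 (ENSMUSG00000026688, chr1:167371966-167393841) had 12.1, 7.93 and 11.1 CPM on day 3, 19.3, 17.7 and 21.3 on day 6, 24.6, 28.9 and 24.6 on day 9, and 29.6, 29.8 and 27.6 on day 12 in recruited cells. Resident cells had Mgst3 at 62, 64.8 and 64.7 CPM on day 0, 48.6, 42.9 and 46.1 on day 3, 66.4, 54 and 69.4 on day 6, 73.4, 67.3 and 73.2 on day 9, and 70.5, 63.8 and 62.4 on day 12. Every recruited library was below every resident library. The difference was -2.14 ± 0.13, adjusted p = 2.16e-11 on day 3 and -1.18 ± 0.12, adjusted p = 2.34e-07 on day 12, and in recruited cells Mgst3 rose on day 12 against day 3, 1.48 ± 0.13, adjusted p = 4.63e-09. Mgst2 (ENSMUSG00000074604, chr3:51660360-51682677), a leukotriene C4 synthase homologue, had 11.9, 6.83 and 6.48 CPM on day 3, 5.13, 8.36 and 9.83 on day 6, 7.17, 7.88 and 10.3 on day 9, and 5.75, 10.1 and 11.4 on day 12 in recruited cells. For Mgst2, resident libraries had 17.8, 6.97 and 9.06 CPM on day 0, 22.9, 24.9 and 24.6 on day 3, 15.3, 9.91 and 11.2 on day 6, 8.2, 10.3 and 8.42 on day 9, and 8.91, 11.6 and 10.7 on day 12. The 3 resident day 3 libraries were the highest of all 27, 1.09 ± 0.30, adjusted p = 0.0109 against day 0 and 1.59 ± 0.30, adjusted p = 0.000849 without untreated replicate 1. Recruited cells were lower than resident cells on day 3, -1.52 ± 0.31, adjusted p = 0.000302. Mgst1 ranged from 127 to 219 CPM in recruited libraries and from 164 to 232 CPM in resident libraries, and was lower in recruited cells on day 3 (-0.39 ± 0.12, adjusted p = 0.00826).

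In the Nrf2 axis, Nfe2l2 was higher in recruited cells early on, Keap1 differed little, and Nqo1 and Me1 were at a few CPM or less after LPS. Nfe2l2 (ENSMUSG00000015839, chr2:75675513-75704641) had 298, 359 and 300 CPM on day 3, 281, 226 and 230 on day 6, 197, 232 and 210 on day 9, and 290, 231 and 212 on day 12 in recruited cells. Resident cells had Nfe2l2 at 288, 256 and 258 CPM on day 0, 232, 184 and 178 on day 3, 197, 208 and 205 on day 6, 205, 203 and 227 on day 9, and 237, 234 and 219 on day 12. Recruited libraries were above resident libraries on days 3 and 6 without overlap. The difference was 0.69 ± 0.12, adjusted p = 8.15e-05 on day 3 and 0.27 ± 0.12, adjusted p = 0.0908 on day 6. Resident Nfe2l2 was lower on day 3 than on day 0, -0.43 ± 0.12, adjusted p = 0.0136, and -0.37 ± 0.14, adjusted p = 0.0563 without untreated replicate 1; the call was also lost without resident day 3 replicate 2 (adjusted p = 0.0608) or 3 (adjusted p = 0.0891). In recruited cells it was lower on day 9 than on day 3, -0.58 ± 0.12, adjusted p = 0.000719. Keap1 (ENSMUSG00000003308, chr9:21229730-21239361) had 60.8, 63.9 and 66.9 CPM on day 3, 41.8, 42.6 and 47.5 on day 6, 47.9, 55.6 and 45.7 on day 9, and 53.3, 48.2 and 49.8 on day 12 in recruited cells. For Keap1, resident libraries had 56.9, 51.2 and 46.4 CPM on day 0, 64.7, 51.1 and 60.2 on day 3, 54, 45.7 and 46.9 on day 6, 48.3, 54.9 and 54.5 on day 9, and 55, 57.8 and 51.3 on day 12. The populations overlapped on every day, with an average difference of -0.06 ± 0.05, adjusted p = 0.357, and recruited Keap1 was lower on day 6 than on day 3, -0.54 ± 0.10, adjusted p = 0.000403.

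Nqo1 (ENSMUSG00000003849, chr8:107388225-107403206), a quinone reductase often used as a readout of Nrf2, had 0.405, 1.02 and 0.874 CPM on day 3, 0, 0.186 and 0.9 on day 6, 0.747, 1.88 and 0.674 on day 9, and 0.808, 0.349 and 0.732 on day 12 in recruited cells. Resident cells had Nqo1 at 24.2, 6.82 and 8.75 CPM on day 0, 1.77, 0.751 and 1.18 on day 3, 1.39, 1.24 and 2.97 on day 6, 2.08, 5.24 and 2.85 on day 9, and 4.58, 4.27 and 3.19 on day 12. Untreated libraries were above all others, and recruited libraries were below resident libraries on days 6, 9 and 12. Resident Nqo1 was lower on day 3 than on day 0, -3.40 ± 0.60, adjusted p = 0.000306, and -2.63 ± 0.59, adjusted p = 0.00309 without untreated replicate 1. By day 6 it was -2.82 ± 0.58, adjusted p = 0.0044 and -2.05 ± 0.57, adjusted p = 0.0502 without that library, and on day 9 -1.97 ± 0.55, adjusted p = 0.0481 and -1.20, adjusted p = 0.369. Recruited cells had less than resident cells on day 12, -2.67 ± 0.66, adjusted p = 0.00392, while the calls of day 6 (-2.28 ± 0.74, adjusted p = 0.0193) and day 9 (-1.64 ± 0.61, adjusted p = 0.0433) were lost without any 1 of 3 libraries on day 6 and 4 on day 9. Me1 (ENSMUSG00000032418, chr9:86581371-86695953), the cytosolic malic enzyme that makes NADPH, had 0.54, 0.55 and 1.02 CPM on day 3, 0.147, 0.0929 and 0.623 on day 6, 0.349, 1.5 and 0.374 on day 9, and 1.08, 0.419 and 0.366 on day 12 in recruited cells. For Me1, resident libraries had 12.9, 3.91 and 5.98 CPM on day 0, 1.25, 2.09 and 3.55 on day 3, 1.11, 1.24 and 1.29 on day 6, 1.51, 5.04 and 0.929 on day 9, and 3.63, 1.91 and 1.57 on day 12. Recruited libraries were lower in all 12 pairs, with an average difference of -1.86 ± 0.36, adjusted p = 0.000115, and on day 6 the difference was -2.04, adjusted p = 0.00173 with the block and -1.97 ± 0.82, adjusted p = 0.0648 without it. The calls of day 3 (0.047), day 9 (0.0487) and day 12 (0.0398), all adjusted p, were each lost without any 1 of 3 or more libraries. Resident Me1 was lower on day 3 than on day 0, -1.72 ± 0.60, adjusted p = 0.0403, and -1.10 ± 0.63, adjusted p = 0.23 without untreated replicate 1, and on day 6 -2.64 ± 0.63, adjusted p = 0.0127, and -2.02 ± 0.65, adjusted p = 0.0998 without it. Counts of Nqo1 and Me1 were low, at most 5.24 CPM in any library after LPS. In Me1, 22.9% of 50-base windows also occur in other genes, mostly the pseudogene Gm7049.

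Nrf2 binds antioxidant response elements, whose core TGACNNNGC was searched on both strands of RefSeq promoter windows (GRCm38.p6, 250 bases before to 50 after a start site). This core can overlap the AP-1 site TGACTCA. Of the 39 listed genes with an entry, 10 had a match (25.6%), against 14% of all 27025 genes with an entry. The 10 were Gstm5, Gsta3, Mgst1, Prdx1, Txnrd1, Srxn1, Gclm, Sod1, Nfe2l2 and Me1. Among these, the matches of Prdx1 (opposite strand) and Me1 hold the whole AP-1 site. Gstt2, Gsta4, Gsr, Ncf4, Gclc, Sod3 and Prdx6 had no entry. Of the listed genes lower in resident cells on day 3 than on day 0, 6 of the 13 with an entry had a match; of those higher, 0 of 7; of those not called, 3 of 16. Without untreated replicate 1 the counts were 0 of 5 lower, 0 of 7 higher and 9 of 24 not called, and the 6 lower genes with a match were among the 8 whose call was lost without that library. Prdx1, Txnrd1, Srxn1, Gclm and Me1 were also among the genes by which that library was found to stand apart. The loss of their calls without it was thus partly set by how it was chosen. The stretches around the match are shown for 4 of the 6 lower genes with a match, gene strand, with the match in capitals, since these are the genes behind that count. They lie at chr4:116685436-116685504 for Prdx1, chr10:82859084-82859152 for Txnrd1, chr3:122245393-122245461 for Gclm and, on the minus strand, chr2:75704865-75704913 for Nfe2l2. The Txnrd1 stretch lies at a RefSeq start site inside the gene's annotated span. The first base of the match is at -133, -92, -134 and -240 from the start site in that order of genes, and the first 3 matches read as the core on the opposite strand. A match describes these letters and is not a binding site.
Prdx1: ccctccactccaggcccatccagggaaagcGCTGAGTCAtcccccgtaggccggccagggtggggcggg
Txnrd1: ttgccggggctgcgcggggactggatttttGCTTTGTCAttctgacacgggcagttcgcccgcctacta
Gclm: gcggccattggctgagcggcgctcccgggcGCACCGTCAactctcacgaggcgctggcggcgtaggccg
Nfe2l2: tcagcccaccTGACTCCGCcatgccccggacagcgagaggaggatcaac

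Other Nrf2 targets and regulators, 30 genes of which 24 were tested, held 16 called between populations on average (66.7%), 10 higher and 6 lower in recruited cells, against 60.3% of all genes. The median log2 difference was 0.15, against 0.02 for all genes. Mafg, a small Maf partner of Nrf2, averaged 164 CPM in recruited cells and 77.8 CPM in resident cells (1.07 ± 0.07, adjusted p = 1.25e-11). Osgin1, a stress-induced growth inhibitor, averaged 9.5 CPM in recruited cells and 4.03 CPM in resident cells (1.24 ± 0.27, adjusted p = 0.000378), and Gstt1, a theta-class transferase, 1.43 CPM and 0.151 CPM in the same order (2.96 ± 0.70, adjusted p = 0.00106). Gstt1 was near 0 in resident cells, so its fold rests on few counts there. Its resident mean after LPS was too low to pass the count filter on those libraries, so that filter favoured its difference. Biliverdin reductase Blvra averaged 67.3 CPM in recruited cells and 148 CPM in resident cells (-1.16 ± 0.06, adjusted p = 3.86e-13), and Gstt3 6.19 CPM and 11.9 CPM (-0.94 ± 0.10, adjusted p = 2.05e-08). Epoxide hydrolase Ephx1 was called lower on the average of log2 differences (-1.04 ± 0.20, adjusted p = 9.48e-05), although its plain means were 18.4 CPM in recruited cells and 17.1 CPM in resident cells.

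NADPH is the electron donor of the oxidase and of both reductases. Of 16 tested genes on a list around NADPH supply, 13 were called on average (81.2%), 1 higher and 12 lower in recruited cells. Of all genes 60.3% were called, 30.3% higher and 30% lower. The list is broader than NADPH production. It holds Tkt, Taldo1, Rpe and Rpia, pentose phosphate enzymes that act after the NADPH-making steps, and Me2, a malic enzyme named as NAD-dependent. The median log2 difference was -0.64, against 0.02 for all genes. On single days the lower calls numbered 10 on day 3, against 23.5% of all genes, 11 on day 6, against 18.8%, 12 on day 9, against 16.4%, and 9 on day 12, against 14.7%. Me2, the mitochondrial malic enzyme, averaged 52.8 CPM in recruited cells and 155 CPM in resident cells (-1.57 ± 0.08, adjusted p = 4.15e-14). The folate enzyme Aldh1l1 averaged 6.26 CPM in recruited cells and 27.7 CPM in resident cells (-2.16 ± 0.27, adjusted p = 6.69e-07), and transaldolase Taldo1 352 CPM and 681 CPM in the same order (-0.96 ± 0.06, adjusted p = 3.84e-12). Mthfd2, a mitochondrial folate enzyme, was the 1 that was higher, at 45.7 CPM in recruited cells and 19.5 CPM in resident cells (1.43 ± 0.16, adjusted p = 9.37e-08). Of 23 tested genes for other thiol and glutathione enzymes, 12 were called between populations on average (52.2%), 4 higher and 8 lower, against 60.3% of all genes, with a median of -0.08. Sesn1, a stress-inducible sestrin, averaged 24.5 CPM in recruited cells and 8.54 CPM in resident cells (1.49 ± 0.23, adjusted p = 7.44e-06), and Chac1, which degrades glutathione, 0.971 CPM and 0.279 CPM in the same order (1.89 ± 0.33, adjusted p = 2.74e-05). Chac1 was low in both populations, which limits the precision of its fold. Selenow, a small selenoprotein, was higher by 0.25 ± 0.10 (adjusted p = 0.0284). Lower were Ggt5, a gamma-glutamyl transferase, at 3.94 CPM in recruited cells and 13.8 CPM in resident cells (-1.83 ± 0.24, adjusted p = 6.74e-07), Oplah, the oxoprolinase of glutathione turnover (-0.94 ± 0.08, adjusted p = 7.57e-10), and Ggct (-0.83 ± 0.10, adjusted p = 2.77e-07).

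For 9 of the 41 genes (22%) the difference between recruited and resident cells changed over the 4 days, against 10.7% of all genes. The test is an F test on 3 degrees of freedom of any change over days 3, 6, 9 and 12, and each adjusted p here is of that test. The log2 values beside it only describe the difference on day 12 minus that on day 3, which was not tested on its own. They were -1.43 for Prdx5 (F test adjusted p = 6.26e-05), -1.50 for Prdx6 (F test adjusted p = 0.000525), -0.60 for Nfe2l2 (F test adjusted p = 0.038) and -0.38 for Ncf1 (F test adjusted p = 0.0246). They were 1.72 for Gstm1 (F test adjusted p = 0.00122), 1.30 for Gstk1 (F test adjusted p = 0.0107), 0.96 for Mgst3 (F test adjusted p = 0.00328), 0.97 for Prdx4 (F test adjusted p = 0.0466) and 0.60 for Gstz1 (F test adjusted p = 0.0366). The differences of Ncf1 and Gstz1 had no single direction over the days, at 0.70, -0.02, 0.18 and 0.31 for Ncf1 and -0.47, 0.20, 0.17 and 0.13 for Gstz1 on days 3, 6, 9 and 12. The calls of Gstz1, Prdx4, Nfe2l2 and Ncf1 were each lost without any 1 of 9 or more libraries, with adjusted p up to 0.166 for Gstz1, 0.167 for Prdx4, 0.148 for Nfe2l2 and 0.0813 for Ncf1. With the pair block 16 genes were called, 8 of them among the 9, against 18.1% of all genes; Gstz1 was not called (adjusted p = 0.0579), and Sod2 (-1.18, adjusted p = 0.000199) and Ncf4 (-0.64, adjusted p = 0.0127) were among those added.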

How the data were processed

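The deposited values are whole-number counts per Ensembl gene, in 1 table of all libraries with a second table for reads outside genes; per the submitters' processing notes the authors worked on the mm10 genome with HTSeq 0.6.0, R 3.1.0, STAR 2.4.0a and DESeq2 1.4.5. The sources used here give neither the strand option nor the annotation. Libraries came from poly(A) RNA, sequenced on the Ion Proton, per the labels' protocols.

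Counts of 27 libraries were fitted with edgeR 4.0.16 (quasi-likelihood F test, TMM scaling, filterByExpr with a minimum count of 10 and total of 15, 1 mean per group, 18 residual degrees of freedom, limma 3.58.1, R 4.3.3), with Benjamini-Hochberg adjustment over all genes tested and a threshold of 0.05. Exact permutation of 3 against 3 libraries has a smallest p of 0.1, so none was used. The fit was tested on simulated data. Reads without a gene stayed out of library totals; those outside genes made up 6.77% to 26.5%. Gene positions and exon lengths are from GENCODE M21 (GRCm38), promoters from RefSeq (GRCm38.p6).

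Members and lists were chosen with earlier results of these data known. Library values are given for a fixed set of 19 genes and for the most raised and lowered members with at least 20 CPM; others by ranges. Deviations of libraries with the same day and number correlated across populations (r of 0.166 to 0.518, 12 of 12 pairs over 0.1), against a median of -0.13 for other numbers of the same day. Deviations were taken from the mean of the 3 libraries of a group. Values above 0 for equal numbers thus push those for other numbers below 0, so the median of -0.13 is not separate evidence for pairs. The pairing comes from the data, since the labels do not say what a number marks. Both libraries of each pair also fall in the same run of header library numbers (2 to 9, 12 to 18, 19 to 28 or 34 to 53). A shared pair and a shared run thus cannot be told apart in these correlations. Alternatives were other scaling, no count filter, number runs as covariate, replicate blocks, only the groups compared, DESeq2 1.42.0, and leaving out single libraries. Leaving out 2 libraries with over 100 CPM of red cell genes was chosen after seeing the data. One gene of the pathway lists is not reported here.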

Additional observations from a re-analysis of the deposited data

Results flagged for a closer look

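The difference between recruited and resident cells changed over days 3, 6, 9 and 12 for 9 listed genes in the edgeR F test, with Benjamini-Hochberg adjusted p of 6.26e-05 for Prdx5, 0.000525 for Prdx6, 0.00122 for Gstm1, 0.00328 for Mgst3, 0.0107 for Gstk1, 0.0246 for Ncf1, 0.0366 for Gstz1, 0.038 for Nfe2l2 and 0.0466 for Prdx4. These were singled out because an effect of population differed between time points by a test of that difference. The calls of Prdx5, Prdx6, Gstm1, Mgst3 and Gstk1 held without any 1 of 24 libraries.

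Reads outside any gene made up 26.5% in recruited day 6 replicate 2, above the 9.16% to 11.2% of the untreated libraries. In all, 8 libraries were above that range, 6 of them recruited.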

How the results depend on the processing

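The counts below are listed genes called, out of 41. For day 12 against day 0 in resident cells (3 called), library size alone gave 6, the run of library numbers as covariate 7, the replicate block of numbers 1 to 3 gave 1, only the libraries compared 1, DESeq2 5, and leaving out the 2 libraries with red cell RNA 1. For day 9 against day 0 (8 called), the covariate gave 13, leaving out those 2 libraries 2, and only the libraries compared 0 in edgeR, where 14 had an unadjusted p under 0.05 (DESeq2 on all libraries called 8). The population difference on day 6 (13 called) came to 20 with the covariate. The change of the difference over days (9 called) came to 5 without the count filter, 14 with the covariate and 16 with the replicate block of day and number.

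Leaving out single libraries gave 15 to 19 for resident cells on day 3 against day 0 (23 called), 7 to 12 on day 6, 2 to 8 on day 9 and 0 to 5 on day 12, and 5 to 11 for the change over days. The 0 came without resident day 12 replicate 1, where 12 had an unadjusted p under 0.05 in edgeR. Signs were compared for the fixed set of 19 genes and, in each comparison, for its most raised and lowered members with at least 20 CPM. Among these, no difference that was called, as reported or under an alternative, changed sign among the alternatives run. Differences that were not called did change sign, such as the average of Gclm (-0.1 to 0.13) and the day 6 difference of Prdx5 between populations (-0.05 to 0.09). The cause of these shifts was not tested.

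Over all genes, the resident counts moved most: day 6 had 1586 calls with the covariate and 1446 with only the libraries compared (873 as reported), day 9 had 1076, 122, 813 with DESeq2 and 212 without the red cell libraries (474 as reported), and day 12 had 379 with the covariate and 398 with DESeq2 (177 as reported). With only the libraries compared, the population difference on day 9 had 2497 calls (4350 as reported) and recruited day 9 against day 3 had 2772 (4933 as reported). The change over days had 2483 calls with the covariate and 2459 with the replicate block (1449 as reported). With library size alone the share of calls that were higher was 38.6% on day 3 between populations (49.7% as reported), 37.1%, 27.7% and 64.2% in resident cells on days 6, 9 and 12 (58.8%, 46.2% and 84.2% as reported), and 57.4% and 63% in recruited cells on days 6 and 9 (47.3% and 50.3% as reported). The resident day 12 share was 66.2% with the covariate and 73.4% with DESeq2, and the day 9 share 65.1% without the red cell libraries. Gstm2, Me1, Gstm5 and Nqo1 had 568 to 1214 counts over all 27 libraries, which limits their precision.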
